A study of Mus musculus with 28 samples.

Results

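Activated regulatory T (Treg) cells of the spleen were compared with Treg cells of the thymus in mice with an intact Foxp3 locus. The comparison used 6 of the 28 libraries of the series, 3 titled WT_Spl_aTreg and 3 titled WT_Thy_Treg, and the groups were taken from these titles. All 6 came from male littermates aged 6 to 8 weeks that carried the Foxp3-gfp reporter allele, so both groups shared the reporter, and wild type (WT) here means that the enhancer CNS3 of Foxp3 was present. The same contrast was read in 8 libraries of mice whose Foxp3-gfp allele lacked CNS3, titled KO, with 4 splenic aTreg and 4 thymic Treg libraries. The 3 libraries titled WT_Spl_rTreg, a second splenic Treg population of the WT mice, are given beside the others. The titles do not spell out what a and r stand for, and no source used here gives the gate that separated aTreg from rTreg cells. The design text speaks of 2 littermates, and the labels do not say which libraries came from separate mice. The p-values therefore measure the spread between libraries within groups, estimated over all 28 libraries, and this spread may be technical.

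Treg cells are CD4 T cells that hold immune responses in check and depend on the transcription factor Foxp3. They arise in the thymus from developing cells that receive a strong signal through the T cell receptor (TCR) and then interleukin-2, and they leave through the blood for the spleen and lymph nodes. Many peripheral Treg cells stay in a resting state with the lymph node homing receptor Ccr7. Others respond to antigen, lose such receptors and take up an effector state with receptors for inflamed tissue, co-stimulatory molecules such as Icos, and suppressive products such as interleukin-10.

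Each of the 6 libraries held 2.69e+07 to 3.85e+07 counts in genes. Of 13 genes of a list that defines CD4 T cells, 10 had a matching symbol, and all 10 were measured. They summed to 9075 to 9660 CPM (a gene's counts relative to the library size, scaled by TMM) in aTreg and 8188 to 8276 CPM in thymic Treg libraries. Markers of other cells were also counted, and their part in the results below was not tested. B cell markers (12 of 15 listed had a matching symbol) summed to 109 to 143 CPM in aTreg and 39.7 to 41.6 CPM in thymic libraries. Of the 12, 10 were higher in aTreg cells. Dendritic cell markers (14 tested) summed to 1554, 847 and 969 CPM in aTreg libraries 1 to 3 and 533 to 701 CPM in thymic libraries, with 2 higher and 1 lower past the test. Myeloid markers (19) summed to 699, 431 and 463 CPM in the same aTreg libraries, 336 to 495 CPM in thymic and 129 to 143 CPM in rTreg libraries, with 2 higher and 0 lower in aTreg than in thymic cells. Erythroid and platelet markers (9 tested) summed to 252, 113 and 162 CPM in aTreg libraries 1 to 3 and 128, 35.5 and 67.3 CPM in thymic libraries 1 to 3, with 4 higher (2 without thymic library 2 or 3) and 1 lower. The aTreg library 1 thus stood above the other aTreg libraries in these 3 sums. It was also highest for B cell markers (143, 134 and 109 CPM in aTreg libraries 1 to 3) and plasma cell markers (279.9, 228 and 198 CPM). The same held for NK cell markers (40.2, 28.1 and 30.0 CPM) and CD8 T cell markers (302, 280 and 286 CPM). Plasma cell markers (6 tested) summed to 198 to 279.9 CPM in aTreg and 130.2 to 149 CPM in thymic libraries, and 3 were higher and 0 lower. Most of these sums came from Irf4 and Xbp1. Irf4, also a factor of effector Treg cells and 1 of the 3 higher, gave 109 to 137 CPM in aTreg and 72.6 to 86.9 CPM in thymic libraries. Xbp1 gave 62.1 to 67.4 and 54.9 to 60.7 CPM. The 2 members at least 2-fold higher were Igj and Mzb1. Igj gave 91.6, 16.8 and 22.0 CPM in aTreg libraries 1 to 3 and at most 0.333 CPM in a thymic library. Mzb1 was higher by 2.01 on the log2 scale, a call that 8 alternative settings ended. Thymic epithelium and stroma markers summed to 165 to 191 CPM in aTreg and 304 to 346 CPM in thymic libraries, of which Pecam1, also made by T cells and endothelium, gave 143 to 160 and 287 to 330 CPM. The defining thymic epithelial markers Krt5, Krt8, Krt14 and Foxn1 had 0 counts in the aTreg libraries and at most 0.566 CPM in a thymic library, while the epithelial marker Epcam was higher in aTreg libraries (24.3, 27.1 and 14.9 CPM) than in thymic ones (3.69, 4.09 and 5.33 CPM). Of the 11 members of this list tested, 3 were higher and 5 lower in aTreg cells. In such sorted bulk samples, fewer cells of a type and less RNA per cell cannot be told apart.

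Foxp3, on the plus strand of chromosome X from 7573644 to 7595245 (GRCm38), was measured at 654, 587 and 595 CPM in the aTreg libraries and at 671, 643 and 642 CPM in the thymic libraries. The groups overlapped, and the log2 fold change was -0.09 (SE 0.0932), with an adjusted p of 0.461 in edgeR's quasi-likelihood test. The interleukin-2 receptor chain Il2ra (log2 fold change -0.17, adjusted p = 0.765) and the Treg transcription factor Ikzf2, or Helios (-0.13, adjusted p = 0.538), did not pass the same edgeR test either. Ctla4, an inhibitory receptor through which Treg cells restrain antigen-presenting cells, was measured at 1199, 1212 and 1208 CPM in aTreg and 560.2, 558 and 539.9 CPM in thymic libraries. It was 2.18-fold higher in aTreg cells (adjusted p = 1.09e-07). Of 26 genes of a Treg signature list, 10 were higher, 9 were lower and 7 did not pass the test. Nt5e (CD73), which makes adenosine from AMP, was 2.39-fold higher, and Ecm1 and the Ikaros family factor Ikzf4 (Eos) were 2.59-fold and 2.62-fold lower.

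The 6 libraries differed at many genes. Of 13338 genes tested, 5377 (40.3%) passed the edgeR quasi-likelihood test at an adjusted p of 0.05, with 2653 (19.9%) higher and 2724 (20.4%) lower in aTreg cells. The changes were often small: the median size of a called change was 0.63 on the log2 scale, and 47.0% of the called changes were under 1.5-fold. At least 2-fold, 967 genes (7.25%) were higher and 859 (6.44%) were lower. The median log2 fold change over all genes tested was -0.01. Counts in gene lists are read against these shares. Reads in no gene made up 46.9 ± 1.10% of the reads placed at 1 position in aTreg and 47.5 ± 1.55% in thymic libraries (SD, n = 3 each), and a two-sided exact permutation test gave p = 0.6, where 0.1 is the smallest p that 3 against 3 allows.

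**Figure D1:**
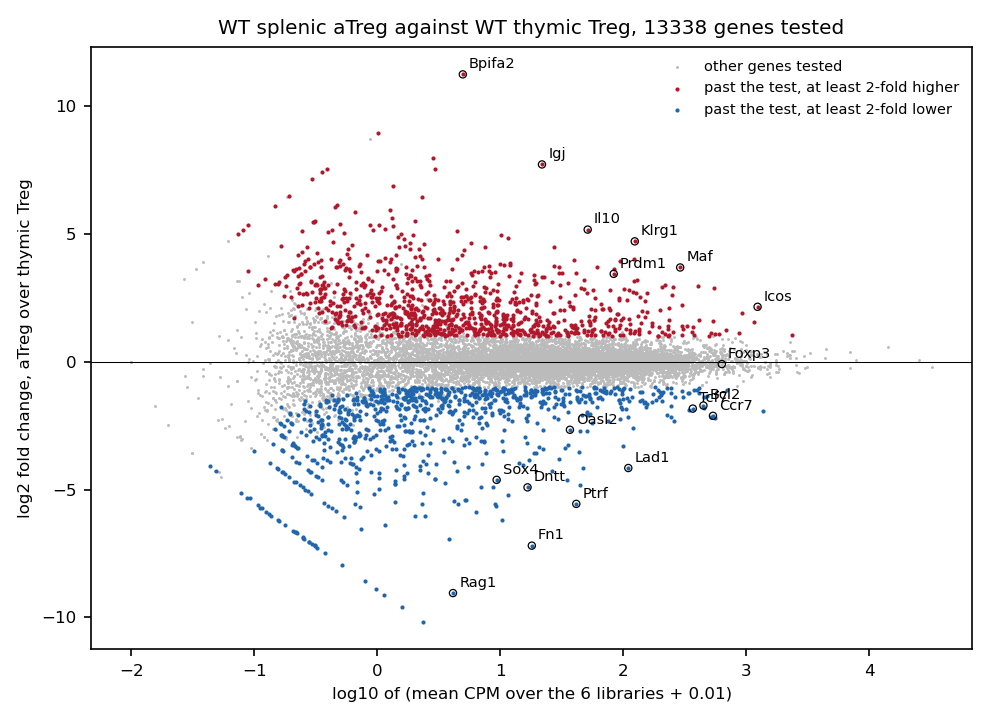
Each point is 1 of the 13338 genes tested, with its mean level over the 6 libraries (log10 of CPM plus 0.01) on the x axis and its log2 fold change, aTreg over thymic Treg, on the y axis. Red points were at least 2-fold higher (967 genes) and blue points at least 2-fold lower (859 genes) past the edgeR test, and Foxp3 lies near 0 while Il10, Klrg1 and Maf lie far above and Rag1, Fn1 and Ptrf far below. The straight lower left edge holds genes with no or few counts in the aTreg libraries, whose fitted fold change is no bound.

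Genes of the effector Treg state were the list with the largest share of members higher in aTreg cells among the lists of pathways and states read. Of its 36 genes, 29 were higher and 2 were lower, with 24 at least 2-fold higher and a median log2 fold change of 1.95. Il10, the suppressive cytokine interleukin-10 on chromosome 1 (131019845 to 131024974), was measured at 91.6, 109.5 and 98.7 CPM in the aTreg libraries and at 2.44, 2.93 and 2.97 CPM in the thymic libraries. Every aTreg library was far above every thymic library, and the fold change was 36.0 (log2 5.17, SE 0.284, adjusted p = 7.75e-14). Klrg1, a receptor for cadherins that marks terminally differentiated Treg and effector T cells, stood at 243, 263 and 210.5 CPM in aTreg and 10.5, 9.19 and 7.72 CPM in thymic libraries. The groups did not overlap, and the difference was 26.2-fold (log2 4.71, SE 0.233, adjusted p = 2.6e-15).

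Transcription factors of the effector state were among the genes that rose. Prdm1 (Blimp-1), a repressor needed for interleukin-10 in Treg cells, was measured at 159, 166 and 134 CPM in aTreg and 12.5, 14.7 and 15.2 CPM in thymic libraries, a 10.8-fold difference (adjusted p = 4.52e-14). Maf, an activator of Il10, was measured at 511, 549 and 555 CPM in aTreg and 35.8, 44.1 and 45.6 CPM in thymic libraries. The groups were well apart for both factors, and Maf was 12.9-fold higher (adjusted p = 9.02e-17). Batf and Irf4, partners that open sites for effector Treg genes, rose less, by log2 fold changes of 1.27 and 0.57. Of 27 helper lineage factors and cytokine receptors 14 were higher and 7 lower, with Il10ra, the interleukin-10 receptor, 5.71-fold higher and Ifngr2, a chain of the interferon-gamma receptor, at a log2 fold change of -1.46. Tbx21 (T-bet), the signature factor of type 1 helper cells, was among the higher genes of that list (log2 fold change 3.35), and Gata3, that of type 2 helper cells, was among the lower ones (-0.45) (both were chosen after their values were seen).

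Co-stimulatory and inhibitory receptors were higher as well. Icos, the co-stimulatory receptor, stood at 1901, 2002 and 2140.2 CPM in aTreg and 416, 452 and 495 CPM in thymic libraries. No thymic library came near the aTreg libraries, and the fold change was 4.43 (log2 2.15, SE 0.0820, adjusted p = 1.54e-17). Of the 24 receptors of this list tested, 14 were higher and 3 were lower. Lag3 (log2 fold change 3.65), Tigit (2.95) and Havcr2 (2.24), inhibitory receptors of activated T cells, were higher, and Pdcd1 (PD-1) was at -0.10 and did not pass the test (these 4 were chosen after their values were seen). Cd96, an adhesion and inhibitory receptor, fell by 1.10 on the log2 scale.

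Secreted and cytotoxic products followed. Of 20 suppressive and effector cytokine genes tested, 10 were higher and 2 lower, with Ifng (interferon-gamma) at 15.8, 10.6 and 14.4 CPM in aTreg and 0.763, 1.60 and 0.829 CPM in thymic libraries, and the growth factor Csf1 5.2-fold higher. Gzmb, the protease granzyme B, was measured at 177, 142 and 210.1 CPM in aTreg and at 10.4, 11.8 and 11.9 CPM in thymic libraries (15.5-fold, adjusted p = 7.62e-10). All aTreg libraries were higher for both genes. Among 19 cytotoxic and NK receptor genes 7 were higher and 3 lower, and Ctsw, a cathepsin of cytotoxic cells, ran the other way at 82.4, 85.4 and 94.7 CPM in aTreg and 424, 427 and 446 CPM in thymic libraries. S100, annexin and galectin genes, many of them tied to the cytoskeleton and migration of effector cells, were higher for 17 of 26 members and lower for 1. S100a6 was 7.67-fold and S100a4 7.04-fold higher.

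**Figure D2:**
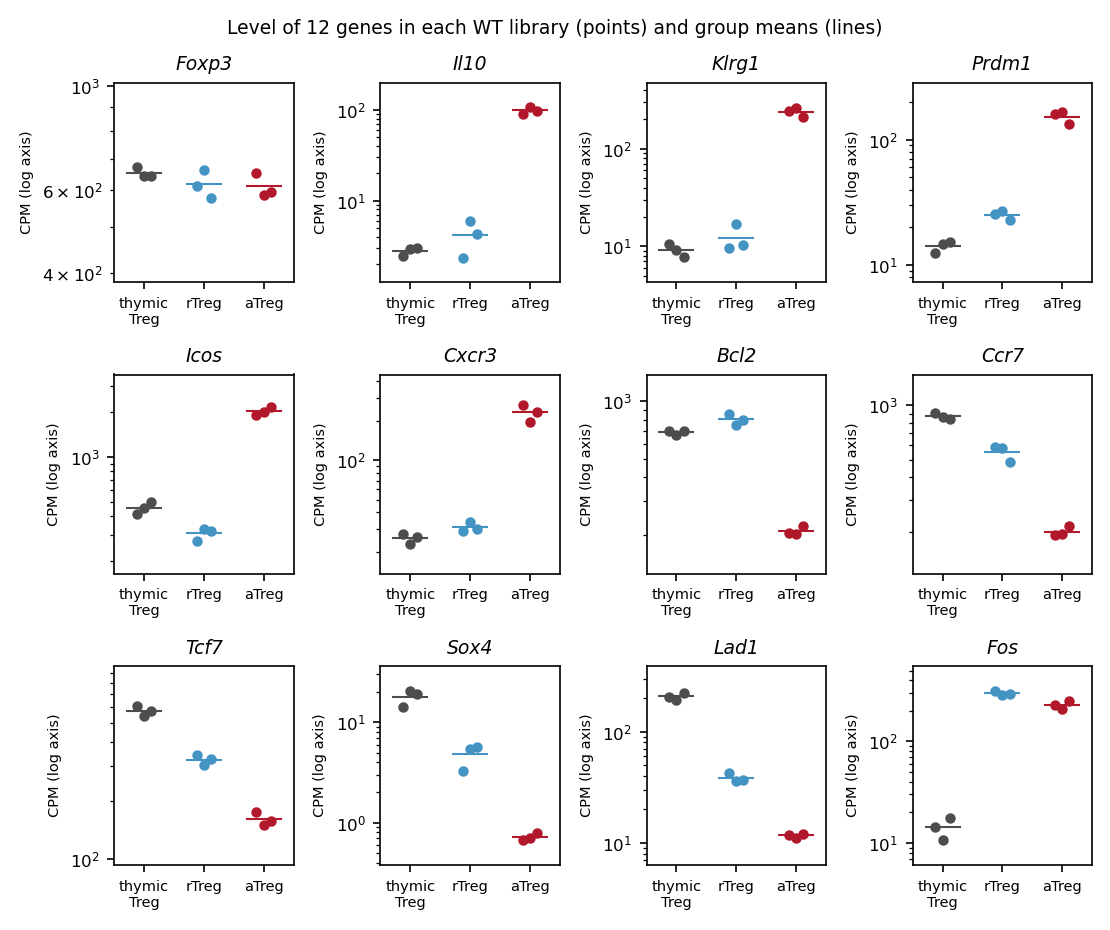
Each panel shows the level of 1 gene (CPM on a log axis) in the 3 thymic Treg, 3 rTreg and 3 aTreg libraries of the WT mice, with a line at each group's mean. Il10, Klrg1, Prdm1, Icos and Cxcr3 were high in aTreg libraries alone among these 9, Bcl2, Ccr7 and Tcf7 were lowest there, Sox4 and Lad1 were highest in thymic libraries, Fos was high in both splenic groups, and Foxp3 lay within 579 to 671 CPM throughout.

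Receptors that guide migration changed in both directions. Ccr7 was measured at 191, 195 and 216 CPM in aTreg and 912, 859.7 and 840.5 CPM in thymic libraries. This homing receptor was lower in every aTreg library, by 4.34-fold (adjusted p = 4.36e-14). S1pr1, the receptor for sphingosine-1-phosphate that lets T cells leave thymus and lymph nodes, was 2.53-fold lower. Of 24 chemokine and related receptors tested 15 were higher and 3 lower (median log2 fold change 1.25). Cxcr3, a receptor of type 1 inflammation, stood at 267, 195 and 234 CPM in aTreg and 27.4, 23.1 and 26.1 CPM in thymic libraries. It was 9.07-fold higher, with no overlap. Ccr9, the receptor for the thymic and gut chemokine Ccl25, was higher in aTreg cells (2.06-fold), and Ccr8, a receptor of tissue Treg cells, differed by 1.29-fold (adjusted p = 0.00773). The integrin Itgae (CD103), which binds epithelial E-cadherin, was 2.61-fold higher, and 11 of 29 integrins and adhesion receptors were higher and 6 lower. Cd44 (1.68-fold higher) is commonly used to sort activated from resting T cells, so where the gate used it its difference is not a result. The call of Ccr8 was lost without aTreg library 2.

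Genes of the naive and resting state fell. Of 20 such genes 15 were lower and 3 higher, with 12 at least 2-fold lower and a median log2 fold change of -1.09. Satb1, a chromatin organiser of developing and resting T cells, was measured at 83.1, 84.7 and 93.4 CPM in aTreg and 382, 371 and 343 CPM in thymic libraries, a 4.20-fold difference (adjusted p = 3.92e-17). Tcf7 (TCF-1), a factor of stem-like and naive T cells, was measured at 174, 151 and 158 CPM in aTreg and 607, 539 and 574 CPM in thymic libraries (3.56-fold lower, adjusted p = 1.36e-16). The groups were apart for both, with little spread inside a group. Its relative Lef1 was 2.06-fold, the repressor Bach2 3.56-fold, and Klf2, which drives S1pr1, 2.05-fold lower. The survival factor Bcl2 was measured at 204, 202 and 222 CPM in aTreg and 697, 668 and 696 CPM in thymic libraries. Every aTreg library was below every thymic one, Bcl2 was 3.28-fold lower, and the death receptor Fas was 2.59-fold lower while its ligand Fasl was 5.29-fold higher. Among the 3 higher members of the list were Ccr9 and the interleukin-7 receptor Il7r (log2 fold change 0.83), and the third was Btg1 (0.48) (Il7r and Btg1 were named after their values were seen).

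Genes of immature thymocytes were higher in the thymic libraries. Of 28 members 19 were lower and 5 higher in aTreg cells, with 12 at least 2-fold lower and a median log2 fold change of -0.98. Rag1, a part of the recombinase that assembles TCR genes, was read at 14.8, 2.20 and 7.67 CPM in the thymic libraries and at 0, 0 and 0.0332 CPM in the aTreg libraries, which is 953 counts against 1. The count ratio was 758, with a 95% Poisson interval of 136 to 29956 that covers counting error only. Dntt (TdT), which adds bases at TCR junctions, was measured at 40.4, 23.3 and 33.0 CPM in thymic and 2.13, 0.442 and 0.598 CPM in aTreg libraries. Sox4, a factor of early thymocytes, was measured at 14.1, 20.4 and 19.3 CPM in thymic and 0.675, 0.700 and 0.797 CPM in aTreg libraries (24.6-fold lower, adjusted p = 3.3e-14). The groups were apart for all of these. Rag1 and Dntt are also markers of double-positive thymocytes, whose list had 7 of 11 members lower and 1 higher. The other double-positive markers included Cd8b1, at 56.9, 37.1 and 37.2 CPM in thymic and 25.4, 21.0 and 20.8 CPM in aTreg libraries. Lad1, an anchoring filament protein, was measured at 207, 194 and 223 CPM in thymic and 11.8, 11 and 12.1 CPM in aTreg libraries, and it was 17.8-fold lower (adjusted p = 1.61e-18). Cd24a, lost as thymocytes mature, was 2.30-fold lower at an adjusted p of 0.0482, a call that 10 alternative settings ended. Over all alternatives its adjusted p ran from 6.51e-07 to 0.136. It was 3.99e-05 in the edgeR test on only the 6 libraries of the contrast.

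Several of the largest falls were genes that none of the Treg lists holds, taken by size of change among genes whose groups did not overlap and whose higher mean was 8 CPM or more. Ptrf (cavin-1), a coat protein of caveolae, was measured at 86.5, 79.5 and 77.8 CPM in thymic and 1.65, 1.88 and 1.63 CPM in aTreg libraries (47.2-fold, adjusted p = 2.95e-16). Nrp2, a semaphorin receptor, was measured at 14.2, 17.8 and 21.4 CPM in thymic and 0.338, 0.295 and 0.465 CPM in aTreg libraries. The groups did not overlap for either gene. Serpine2, a protease inhibitor, was 29.8-fold and Ltbp1, which binds latent TGF-beta, 43.3-fold lower. Fn1 (fibronectin) varied widely, at 66.6, 14.5 and 26.5 CPM in thymic and 0.338, 0.0737 and 0.299 CPM in aTreg libraries. Alox15, a lipoxygenase, was read at 32.5, 5.92 and 15.6 CPM in thymic libraries and at most 0.743 CPM in an aTreg library. Rag1, Fn1 and Alox15 were each highest in thymic library 1 and lowest in thymic library 2. The platelet marker Pf4 followed the same order (4.04, 1.83 and 3.52 CPM), and the myeloid sum was also highest in thymic library 1 (495 CPM).

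Signals that accompany selection in the thymus were lower for part of their genes. Of 25 genes of thymic selection and TCR signalling 9 were lower and 3 higher, and 13 did not pass the test. Itm2a, induced during positive selection, was measured at 848, 929.6 and 964 CPM in thymic and 159, 209.8 and 231 CPM in aTreg libraries (4.57-fold lower, adjusted p = 8.99e-14). Dusp4, a phosphatase induced by MAP kinase signals, was 3.12-fold lower and Nr4a1 (Nur77), an immediate reporter of TCR signals, was 1.53-fold lower. The early activation marker Cd69 did not pass the test (log2 fold change 0.16, adjusted p = 0.281). Of 28 members of the TCR complex and its proximal signalling 13 were higher and 10 lower. Malt1, a protease of the NF-kB branch, was 3.12-fold higher and Themis, a signalling adaptor of thymocytes, was 3.39-fold lower. Of 26 NF-kB subunits and targets 7 (26.9%) were higher and 7 (26.9%) lower, not far from the 19.9% and 20.4% of all genes. Their median log2 fold change was 0.03. Among those called were Icam1 (log2 fold change 0.81), Birc3 (-0.61) and Rel (-0.83).

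Cytokine pathways also differed. Of 20 genes of interleukin-2, JAK and STAT5 signalling 9 were higher and 6 lower. Stat5a, the factor that interleukin-2 activates, was measured at 78.5, 71.2 and 59.1 CPM in aTreg and 218, 249 and 245 CPM in thymic libraries. It was 3.41-fold lower without overlap (adjusted p = 9.79e-15), and Socs3, an inhibitor of cytokine receptors, was 3.45-fold higher. In the TGF-beta pathway 13 of 21 genes were lower and 4 higher (median log2 fold change -0.44). The co-receptor Tgfbr3 was measured at 4.79, 5.97 and 6.45 CPM in aTreg and 26.2, 27.3 and 25.6 CPM in thymic libraries, and the pathway repressor Skil was 2.12-fold lower. Smad3, which carries the signal, went the other way and was 1.78-fold higher. Interferon-stimulated genes were lower for 23 of 33 members and higher for 3 (median log2 fold change -0.72). Oasl2, an antiviral protein, was measured at 53.4, 76.8 and 60.6 CPM in thymic and 10.3, 7.48 and 12.2 CPM in aTreg libraries. Irf7, the regulator of the type I interferon response, was 2.82-fold lower, again with no overlap, whereas the guanylate-binding protein Gbp3 was 3.09-fold higher.

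**Figure D3:**
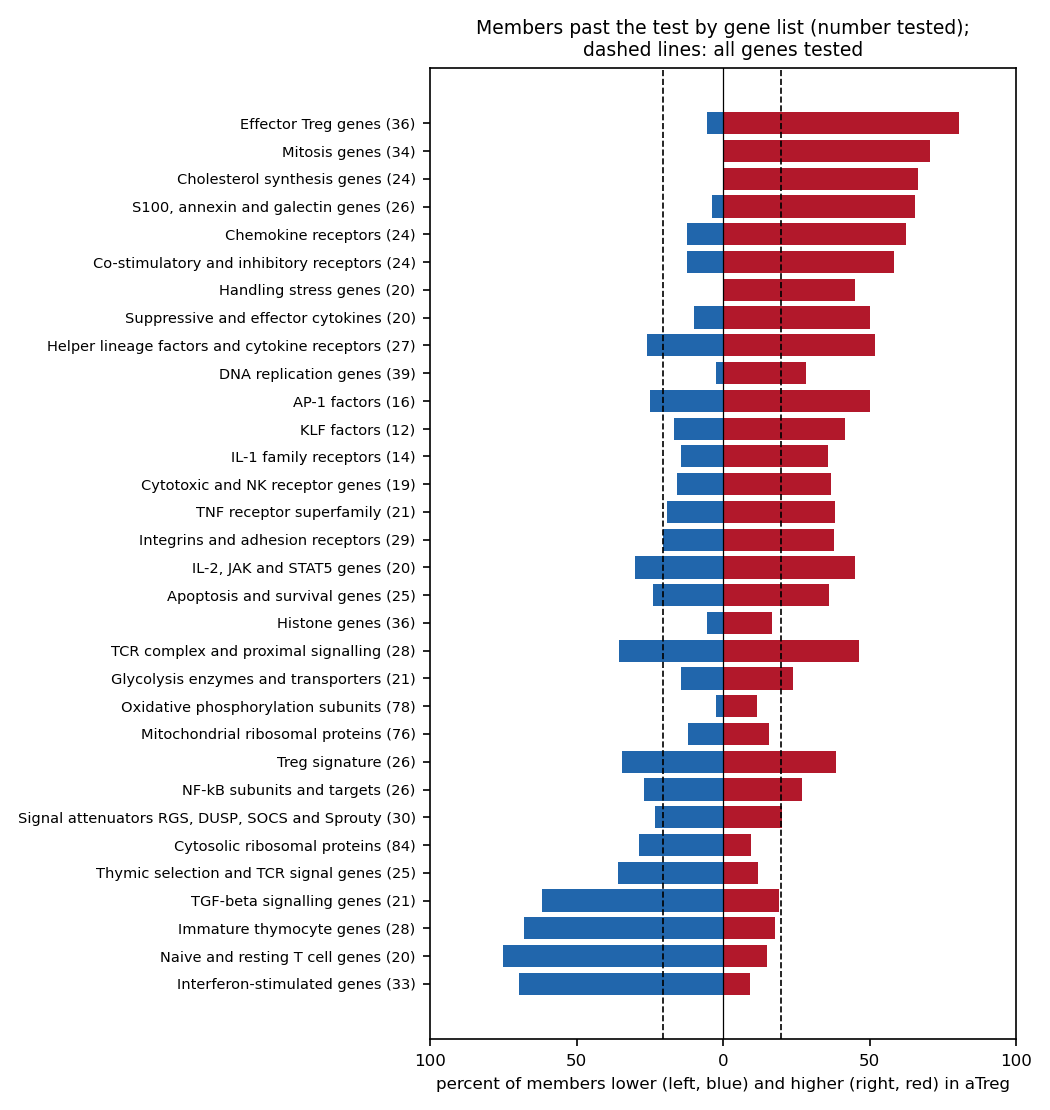
For each list of genes (number tested in brackets), the red bar gives the percent of members higher in aTreg cells past the edgeR test and the blue bar the percent lower. Dashed lines mark the shares over all genes tested, 19.9% higher and 20.4% lower. Effector Treg genes (29 of 36 higher) stand at the top, and interferon-stimulated genes (23 of 33 lower) and naive and resting genes (15 of 20 lower) at the bottom.

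Fos, Fosb, Junb and Zfp36, genes induced early after stimulation, were higher in aTreg cells. Fos, a subunit of the AP-1 transcription factor, was measured at 228, 208 and 250 CPM in aTreg, 312, 288 and 295 CPM in rTreg and 14.3, 10.7 and 17.6 CPM in thymic libraries. All 6 splenic libraries were above all thymic ones, and Fos was 16-fold higher in aTreg than in thymic cells (adjusted p = 1.64e-08), while its difference between aTreg and rTreg cells did not pass the test (log2 fold change -0.38, adjusted p = 0.447). Fosb, Junb and the mRNA decay factor Zfp36 were 14.1-fold, 4.14-fold and 3.13-fold higher. These genes belong to a list of genes that respond to tissue handling and cell sorting, of which 9 of 20 were higher and 0 lower in aTreg cells (7 at least 2-fold; 6 higher without aTreg library 2 or without thymic library 1), and the part of handling was not tested. Egr1, another immediate early gene of that list, did not pass the test (log2 fold change -0.04, named after its value was seen), and the immediate early gene Nr4a1 was lower. Of 16 AP-1 and related bZIP factors 8 were higher and 4 lower. The bZIP repressor Nfil3 was 8.18-fold higher in aTreg than in thymic cells. It stood at 2.72, 3.05 and 3.68 CPM in rTreg libraries against 15.9, 16.4 and 18.8 CPM in aTreg libraries. The KLF factors Klf4 (14.9 ± 0.723 CPM in aTreg and 1.25 ± 0.811 CPM in thymic libraries, SD, n = 3 each) and Klf6 (2.46-fold) were higher as well.

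The letters TGACTCA, the consensus site of AP-1, which read TGAGTCA on the other strand, were looked for on both strands of the promoter windows of RefSeq (250 bases before to 50 after a gene's start, GRCm38.p6). A window was matched by symbol for 9858 of the 13338 genes tested, and 4.49% of these held the site, as did 5.2% of all 32851 windows. Among genes at least 2-fold higher in aTreg cells 50 of 688 windows (7.27%) held it, and among genes at least 2-fold lower 40 of 627 (6.38%). With any base in the middle (TGANTCA) the shares were 6.28% of genes tested, 9.59% of those higher and 8.29% of those lower. Shares are given as descriptions with no test. Of 75 named genes that differed at least 2-fold and had a window, 6 held the consensus in the 250 bases before the start, and 4 of these are shown, 2 higher and 2 lower in aTreg cells, to place the site against the start in genes of either direction. Glrx and Cybrd1, the other two, are not shown. The site is in capitals, read 5′ to 3′ on the gene's strand. Gzmb (minus strand, chr14:56262351-56262427) held it 58 bases before the start, S100a11 (plus strand, chr3:93520325-93520495) at 136 and at 38 bases, Ecm1 (minus strand, chr3:95739592-95739668) 64 bases and Fas (plus strand, chr19:34290413-34290489) 211 bases before the start.
Gzmb: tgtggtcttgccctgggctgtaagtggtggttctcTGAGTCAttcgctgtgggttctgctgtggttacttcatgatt
S100a11: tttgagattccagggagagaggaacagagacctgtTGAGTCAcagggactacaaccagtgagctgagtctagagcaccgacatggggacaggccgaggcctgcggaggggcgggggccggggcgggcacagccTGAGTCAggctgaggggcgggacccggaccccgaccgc
Ecm1: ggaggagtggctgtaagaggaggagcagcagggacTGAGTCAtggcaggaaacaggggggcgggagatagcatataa
Fas: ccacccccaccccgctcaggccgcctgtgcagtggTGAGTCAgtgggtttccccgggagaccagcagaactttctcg
Because the 4 genes shown were picked as 2 of each direction, they do not tell where the site is more common. The letters TGTTTAC, a forkhead site of the kind Foxp3 and Foxo1 bind, were in 3.20% of the windows of genes tested, 3.05% of those at least 2-fold higher and 5.58% of those at least 2-fold lower. The letters CACCTG, an E-box of E proteins, were in 21.0%, 26.7% and 25.2%, TTGGCGC, an E2F site, in 4.85%, 4.36% and 1.59%, and GGGTGTG, a KLF site, in 10.1%, 12.2% and 11.5%. These were searched on both strands, and a match is a description and not a site in use.

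Most mitosis genes and a smaller share of DNA replication genes were higher in aTreg cells. Of 34 mitosis genes 24 were higher and 0 lower, with a median log2 fold change of 0.70 and 4 at least 2-fold higher. Prc1, which bundles the central spindle, was measured at 51.2, 54.7 and 65.2 CPM in aTreg and 20.5, 22.5 and 25.7 CPM in thymic libraries (2.49-fold, adjusted p = 3.88e-07). Birc5 (survivin) was measured at 38.9, 42.5 and 63.5 CPM in aTreg and 18.2, 21.3 and 24.4 CPM in thymic libraries. Neither gene's groups overlapped, and aTreg library 3 was the highest for both. Without that library 15 mitosis genes were higher. Of 39 DNA replication genes 11 (28.2%) were higher and 1 lower, where 19.9% of all genes were higher. Rrm2, a subunit of ribonucleotide reductase, was 2.32-fold higher. Without thymic library 2, 7 replication genes were higher.

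Lists of metabolism and translation differed from each other. Of 24 cholesterol synthesis genes 16 were higher and 0 lower (median log2 fold change 0.55), among them Sc4mol at 81.9, 86.6 and 91.0 CPM in aTreg and 48.7, 45.0 and 51.8 CPM in thymic libraries and Ebp, a sterol isomerase, 1.57-fold higher. Of 21 glycolysis enzymes and transporters 5 (23.8%) were higher and 3 (14.3%) lower, where 19.9% of all genes were higher and 20.4% lower. Cytosolic ribosomal proteins were lower for 24 of 84 members (28.6%) and higher for 8 (9.52%). Oxidative phosphorylation subunits were higher for 9 of 78 (11.5%) and lower for 2 (2.56%), both below the shares of all genes. These counts moved with single libraries. The ribosomal genes summed to 23832 CPM in aTreg library 1, 27731 and 32416 CPM in the others and 32528 to 33449 CPM in thymic libraries. Without aTreg library 1 the lower ribosomal members were 7 and the higher oxidative phosphorylation members 27, whereas without aTreg library 3 they were 43 and 5. The lower ribosomal members were 14 without thymic library 1 and 15 without thymic library 3. The higher mitochondrial ribosomal members were 12 of 76, with 23 without aTreg library 1 and 6 without aTreg library 3. Rpl10 and Rps27, the higher ribosomal genes of smallest p, were counted at 4.69 to 11.3 and 3.48 to 7.51 CPM, and as genes with near-identical copies in the genome their counts are uncertain.

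Other large rises included genes tied to single libraries. Igj, the joining chain of secreted antibodies, was read at 91.6, 16.8 and 22.0 CPM in aTreg libraries and at 0.178, 0.333 and 0.126 CPM in thymic libraries, with a count ratio of 219 (95% Poisson interval 144 to 349). Bpifa2, a secreted salivary protein, was read at 16.1, 12 and 1.66 CPM in aTreg libraries and had 0 counts in thymic libraries, which makes it at least 356-fold higher against a floor of 3 counts over the thymic group. The edgeR call of Bpifa2 (adjusted p = 0.0329) was lost without aTreg library 1 (0.0772), aTreg library 2 (0.0569) or any 1 thymic library (0.0742 to 0.0861), and over all alternatives its adjusted p ran from 2.19e-09 to 0.491. Igj (adjusted p = 0.0031) moved from a log2 fold change of 7.72 to 6.55 without aTreg library 1 and lost its call without both libraries numbered 1 (0.0527) and with limma voom (0.183). Both genes were highest in aTreg library 1, and both were also present in rTreg libraries (18, 2.67 and 5.28 CPM for Igj and 17.7, 8.11 and 1.69 CPM for Bpifa2). Mmp9, a matrix protease also made by myeloid cells, was measured at 34.1, 18.6 and 14.4 CPM in aTreg and 0.610, 0.998 and 0.754 CPM in thymic libraries, and Cxcl2, a neutrophil chemokine, at 10.5, 7.55 and 7.87 CPM in aTreg and at most 0.331 CPM in a thymic library. Hmox1 (heme oxygenase) was read at 101, 35.4 and 38.4 CPM in aTreg and 7.45, 4.96 and 3.14 CPM in thymic libraries. Hmox1, itself a member of the myeloid list and part of its sum, Mmp9 and Cxcl2 were each highest in aTreg library 1. By contrast Sccpdh, an uncharacterised reductase, was lowest in that library at 42.7 CPM, with 62.0 and 53.1 CPM in the other aTreg libraries and 1.70, 2.76 and 2.51 CPM in thymic libraries (22.7-fold, adjusted p = 6.68e-14). Nid2 (nidogen-2), a basement membrane protein, was 30.8-fold higher at 21.8, 19.7 and 16.8 CPM in aTreg libraries. Tph1, the first enzyme of serotonin synthesis, was 16.1-fold higher, at 4.76, 10 and 10.1 CPM in aTreg libraries.

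Other lists held members of both directions. Over all genes tested 19.9% were higher and 20.4% lower. Of 21 TNF receptor superfamily genes 8 (38.1%) were higher and 4 (19.0%) lower, and of 14 interleukin-1 family receptors 5 (35.7%) and 2 (14.3%). Of 25 apoptosis and survival genes 9 (36%) were higher and 6 (24%) lower, and of 12 KLF factors 5 (41.7%) and 2 (16.7%). Of 30 signal attenuators (RGS, DUSP, SOCS and Sprouty proteins) 6 (20%) were higher and 7 (23.3%) lower, near the shares of all genes.

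The second splenic population showed which of these differences it shared. The aTreg and rTreg comparisons with thymic cells use the same thymic libraries, so values are given side by side, and the direct test between aTreg and rTreg cells is the test of their difference. Between rTreg and thymic cells 4081 genes (30.6%) passed the test: 1850 (13.9%) were higher and 2231 (16.7%) lower, and between aTreg and rTreg cells 5060 genes (37.9%) passed it, of which 2650 (19.9%) were higher and 2410 (18.1%) lower. Effector Treg genes were higher for 6 of 36 members and lower for 17 in rTreg against thymic cells (median log2 fold change -0.41), and 35 of 36 were higher in aTreg than in rTreg cells. Naive and resting genes had a median of 0.25 in rTreg against thymic cells, where 11 of 20 were higher and 5 lower. Bcl2, a member of this list, stood at 856, 753 and 802 CPM in rTreg libraries, above the thymic range. Mitosis genes were lower in rTreg than in thymic cells for 21 of 34 members and higher for 1, so the thymic libraries lay between the splenic ones. The same order held for Ccr8, at 26.1, 29.6 and 27.5 CPM in rTreg, 144, 154 and 159 CPM in thymic and 179.8, 218 and 191 CPM in aTreg libraries.

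Other lists moved in the same direction in both splenic populations. Immature thymocyte genes were lower for 19 of 28 members in rTreg cells and higher for 2, with no count of Rag1 in rTreg libraries. Sox4, at 3.24, 5.48 and 5.64 CPM, and Lad1, at 42.5, 35.8 and 36.5 CPM in rTreg libraries, were between thymic and aTreg levels, and both differed between aTreg and rTreg cells (log2 fold changes -2.72 and -1.72, adjusted p = 4.56e-09 and 4.44e-11). Ptrf was also intermediate in rTreg libraries, at 7.10, 8.25 and 6.37 CPM. Interferon-stimulated genes were lower for 19 of 33 and higher for 3, and cholesterol synthesis genes were higher for 19 of 24 and lower for 0. Klf4 and Klf6 were higher in rTreg than in thymic cells (log2 fold changes 3.24 and 1.5), and neither passed the test between aTreg and rTreg cells (0.29 and -0.20, adjusted p = 0.488 and 0.142). The cytosolic ribosomal proteins differed in direction, with 47 of 84 higher and 0 lower in rTreg against thymic cells.

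**Figure D4:**
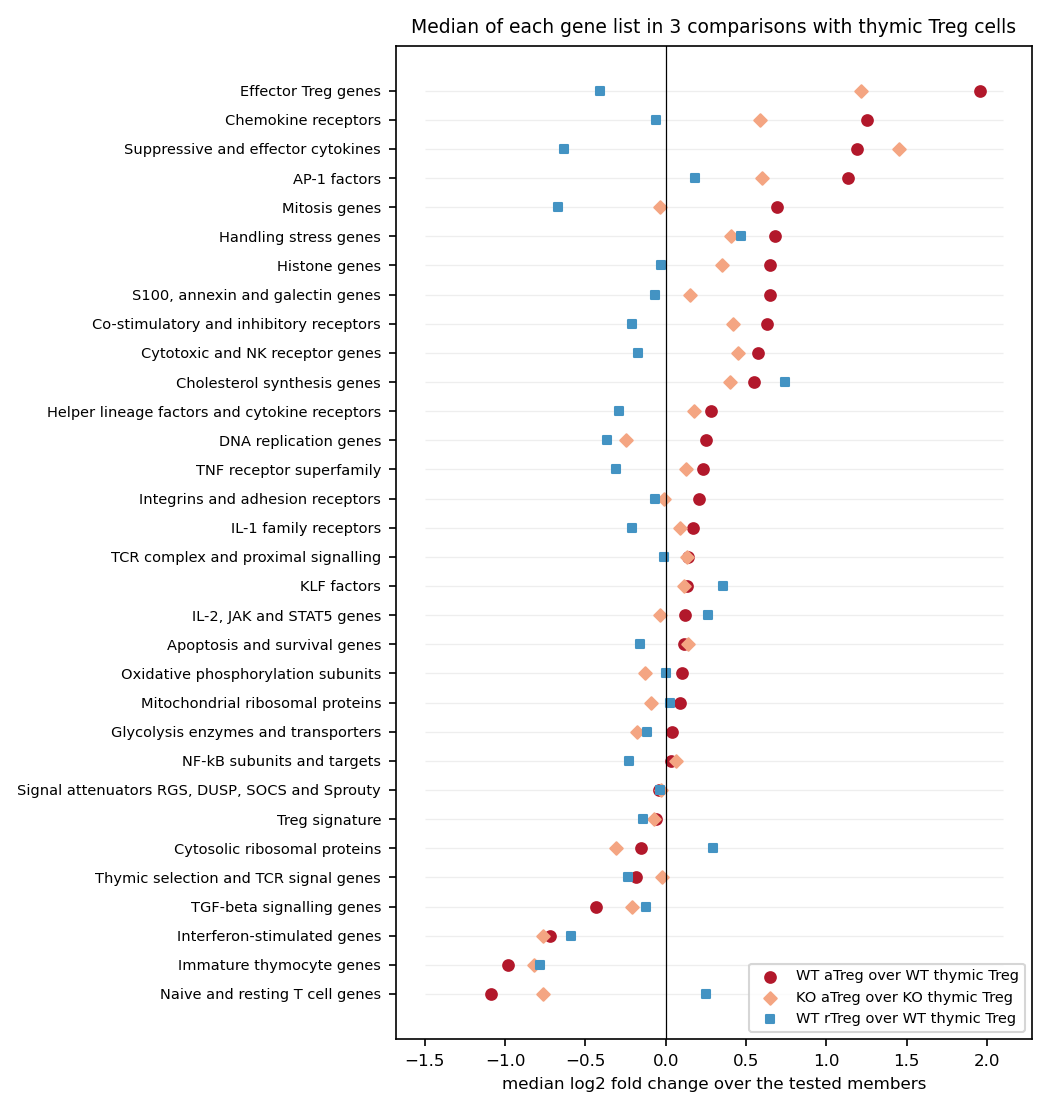
For each gene list, the median log2 fold change over its tested members is shown for WT aTreg (red circles), KO aTreg (orange diamonds) and WT rTreg (blue squares) cells, each against thymic Treg cells of its genotype. Effector Treg genes stand at 1.95, 1.21 and -0.41, mitosis genes at 0.70, -0.03 and -0.67, and immature thymocyte genes at -0.98, -0.82 and -0.78. The WT aTreg and WT rTreg values share the thymic libraries.

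The contrast was read again in the KO libraries, none of which enter the WT contrast. There 5587 genes passed the test (41.9%), 2747 higher and 2840 lower in aTreg cells. Of the calls, 3765 were shared in the same direction, which is 70.0% of the WT and 67.4% of the KO calls, and 12 were called in opposite directions. Of the 1826 genes (13.7%) at least 2-fold different in WT mice, 1783 had the same sign in KO mice and 1489 passed the test there. Il10 was measured at 83.2, 90.1, 103.9 and 96.0 CPM in KO aTreg and 4.50, 6.83, 5.95 and 3.83 CPM in KO thymic libraries, again with no overlap. Effector Treg genes were higher for 26 of 36 members and lower for 2 in KO mice, naive and resting genes lower for 15 of 20, immature thymocyte genes lower for 18 of 28 and interferon-stimulated genes lower for 25 of 33, where 20.6% of all genes were higher and 21.3% lower. Myeloid markers behaved otherwise in KO mice, where 10 of 19 were lower and 1 higher in aTreg cells, with sums of 303 to 384 CPM in KO aTreg and 536 to 1269 CPM in KO thymic libraries.

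A test of the difference between the KO and the WT contrast called 113 of 13338 genes (0.847%), 48 (0.360%) higher and 65 (0.487%) lower in KO. Left out one at a time, the libraries moved this count between 30 (without thymic WT library 2) and 197 (without thymic KO library 4). Genes chosen for a large change in 1 genotype tend to change less in the other by that choice alone, so both choices are given. Of 967 genes at least 2-fold higher in WT aTreg cells, 826 had a smaller value in KO (median log2 fold change 1.92 in WT and 1.35 in KO). Of 762 genes (5.71%) at least 2-fold higher in KO aTreg cells, 279 had a smaller value in WT (median 1.74 in KO and 2.03 in WT). Icos rose by 2.15 in WT and 1.46 in KO on the log2 scale, a difference of -0.69 (SE 0.104, adjusted p = 0.000549). Its level was 454 ± 39.4 CPM in WT thymic (SD, n = 3) and 634 ± 33.0 CPM in KO thymic libraries (n = 4), and 2014 ± 120 and 1739 ± 65.6 CPM in the aTreg libraries. Ly6a (Sca-1), a surface antigen of activated lymphocytes, rose by 2.87 in WT and 1.72 in KO (difference -1.14, adjusted p = 0.000197), with thymic levels of 131 ± 20.1 CPM in WT and 251 ± 10.7 CPM in KO libraries. The lysosomal protease Lgmn rose by 1.73 in WT and 0.63 in KO (difference -1.10, adjusted p = 1.31e-05). In these 3 genes the thymic level was higher and the aTreg level lower in KO than in WT libraries. For mitosis genes the KO contrast had 4 of 34 members higher and 2 lower, and the difference passed the test for 1 of the 34, Birc5. DNA replication genes had 2 of 39 (5.13%) higher and 13 (33.3%) lower in the KO contrast, where 20.6% of all genes were higher and 21.3% lower. Their median log2 fold change was -0.25 in KO and 0.25 in WT, and the difference passed the test for 0 of the 39.

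**Figure D5:**
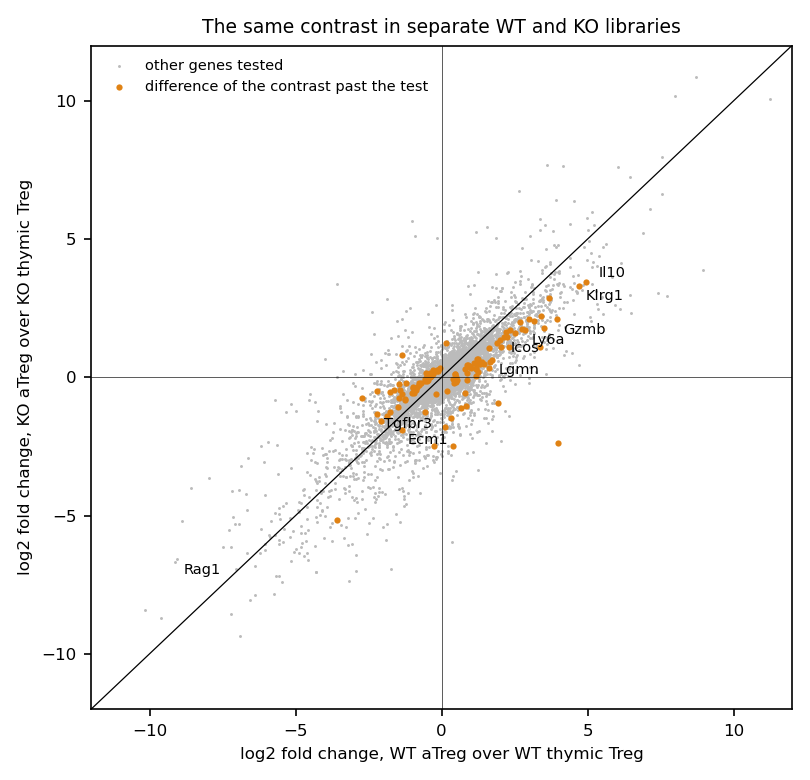
Each point is 1 of the 13338 genes tested, with the log2 fold change of aTreg over thymic Treg cells in WT mice on the x axis and in KO mice on the y axis, and the diagonal marks equal values. Orange points are the 113 genes whose difference between the contrasts passed the edgeR test, such as Icos, Ly6a and Lgmn below the diagonal. The libraries of the axes are separate.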

How the data were processed

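Total RNA of sorted cells was extracted with TRIzol, amplified by the SMART method and read from both ends on a HiSeq, per the labels' protocols. Per the submitters' processing notes, reads were handled with Trimmomatic, STAR and HTSeq on mm10. No source used here gives their versions, annotation or strand setting, and reads of overlapping or antisense genes may be mixed. The deposited files hold the authors' raw counts per gene symbol (23420 symbols). Lines that name no gene were left out of library sizes and tests. They held 45.6 to 49.3% (reads in no gene) and 0.612 to 0.705% (ambiguous reads) of the reads counted in genes, in no gene or as ambiguous in the 6 libraries.

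Groups came from the titles. Counts of all 28 libraries (2.20e+07 to 4.08e+07 each) entered 1 model in edgeR 4.0.16 (R 4.3.3) with a mean for each group, TMM scaling (factors 0.970 to 1.04) and a quasi-likelihood F test. The low-count filter filterByExpr left 13338 genes. There were 20 residual degrees of freedom, with a biological coefficient of variation of 12.7%. Benjamini-Hochberg adjustment covered all genes tested, and an adjusted p of 0.05 was the limit. A level is a CPM value computed with TMM scaling. Chi-square tests of replicate pairs found none that agreed within sampling noise. Alternatives used DESeq2 1.42.0, limma 3.58.1 voom, other scalings and filters, a replicate block and left-out libraries. On simulated counts for this comparison (13093 genes), the fit recovered 68 of 100 genes changed 1.5-fold and 87 of 100 changed 2-fold, with 5 unchanged genes called. The changed genes were drawn only from genes above a set mean count, and far fewer genes changed than were called here. These shares therefore do not give the recovery of genes of few counts.

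Named genes are a fixed set of 26, the 12 largest rises and falls (at least 8 CPM in the higher group, no overlap, predicted genes, small RNAs and receptor segments left out), up to 3 called genes a list (those of smallest p), and the 6 genes of smallest p for the difference between genotypes. The genes and lists were chosen with earlier results of these data known. Gene positions came from GENCODE M21 (GRCm38). It matched 21737 symbols directly and 1259 by another symbol. Promoter sequences came from RefSeq (GRCm38.p6). Some named genes are not reported here.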

Additional observations from a re-analysis of the deposited data

Results flagged for a closer look

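Of the named genes, 22 differed in the contrast of aTreg with thymic Treg cells between KO and WT mice by the edgeR quasi-likelihood test of that difference (adjusted p below the threshold over all 13338 genes), and for 20 of them the change was smaller in size in KO mice. Most of them were named for their change in WT mice, a choice that by itself favours a smaller change in KO mice. How far the choice set this direction was not tested. With the choice made in KO mice, 279 of 762 genes at least 2-fold higher there had a smaller value in WT mice. Values are log2 differences, KO minus WT. Among genes that rose in WT aTreg cells they were -1.39 for Klrg1, -0.69 for Icos, -1.85 for Gzmb, -1.14 for Cxcr3, -1.49 for Nid2, -0.83 for Maf, -0.91 for Il10ra, -0.65 for S100a11, -1.13 for Birc5 and -0.57 for Gbp3. Among genes that rose and were named for the smallest p of the difference they were -1.10 for Lgmn, -0.90 for Glrx, -0.62 for Ctsz, -1.14 for Ly6a and -0.67 for Syngr2. Among genes that fell they were 0.47 for Satb1, -0.53 for Ecm1, 0.52 for Themis, 0.71 for Itgb3, 0.88 for Tgfbr3, 0.99 for Hist2h2be and 0.64 for Ralgps2. Ecm1 fell more in KO than in WT mice, and Syngr2 rose in WT and fell in KO aTreg cells (log2 fold changes 0.19 and -0.48). The call of Syngr2 in WT mice was lost under 6 alternative settings.

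Glrx was at 70.1 CPM in 1 of the 4 KO thymic Treg libraries, apart from the other 3 by Dixon's criterion. It was 1 of 14 such checks past the limit, and chance gives about 1 in 20.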

How the results depend on the processing

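No named gene reversed its direction under any alternative (2507 pairs of gene and setting). Of 148 named genes past the test, 138 kept the call under every alternative run, and Bpifa2, Ccl25, Ccr8, Cd24a, Cd74, Igj, Klra9, Mzb1, Syngr2 and Xcr1 lost it under at least 1. The 4 counts of genes higher or lower in aTreg cells stayed within 1.5 times, and of the 5377 calls 3999 (without aTreg and thymic library 1 of the WT mice) to 5315 (replicate block) remained in the same direction, with 0 called in the opposite one. Without both libraries numbered 1, chosen after seeing the data, 2343 genes were higher and 1908 lower. The count of genes whose contrast differed between KO and WT moved from 113 to 340 with DESeq2, 323 with the replicate block and 287 with limma voom, and ranged from 30 to 197 with 1 library left out. For reads in no gene, the difference in share was -0.648 percentage points, ranged from -1.27 to 0.224 with 1 library left out, and turned to 0.224 without WT thymic library 1. The cause was not tested. Of 1428 list counts under alternatives 119 moved by over 1.5 times.

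Replicate numbers are shared between groups, but the labels do not say that they mark a mouse. Deviations of WT aTreg and thymic libraries of the same number correlated at 0.173, 0.0740 and 0.116. Those of different numbers correlated at -0.124 to 0.0165, so each aTreg library correlated best with its own number. Same-number values were 0.212, 0.0584 and 0.0917 for WT aTreg and rTreg libraries. They were 0.0641, 0.0910, 0.0582 and 0.0690 for KO aTreg and thymic libraries, where aTreg library 4 correlated better with thymic library 3 (0.0868). The main fit used no pairing, and whether the numbers mark a pairing was not tested. With the replicate block 2847 genes were higher and 2911 lower, and 14 of 20 handling genes were higher in place of 9. Depth and 3 libraries a group limit small changes and genes of few counts.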
